A study of Mus musculus with 6 samples.

Results

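Kit, Flt3, Cd34 and Il2ra encode 4 surface proteins by which progenitor stages of blood and B-cell development are told apart. Their chromatin accessibility was read from 54 of the 97124 peaks of an ATAC-seq experiment, an assay in which a transposase inserts sequencing adapters into open DNA. A peak belonged to a gene when it overlapped the gene body, or, when it overlapped no protein-coding gene, when that gene was the nearest protein-coding gene within 100 kb. Kit, Flt3 and Il2ra had 15 peaks each and Cd34 had 9. Of the peaks outside the 4 gene bodies, 6 overlapped a non-coding RefSeq gene or pseudogene, 1 before Flt3 (Gm29793) and 5 past Cd34 (Gm16897 or Gm32250). The samples were bone marrow B-cells of mice that the labels call PEtg, without further genotype, age or sex, so every sample carried that background and no non-transgenic sample was used here. Cells came in 2 groups by their content of H2B-GFP, a histone fused to green fluorescent protein that is diluted when cells divide. H2B-GFP high cells are labelled quiescent (3 samples) and H2B-GFP low cells proliferating (3 samples). Nothing in the labels says that the samples were separate animals, so p-values describe the spread between these samples, part of which may be technical. The labels do not name the promoter that drives H2B-GFP or how long dilution lasted.

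Kit is the receptor tyrosine kinase for stem cell factor and marks stem cells, early lymphoid progenitors, the first pro-B cells and mast cells. Flt3 is a related receptor kinase of lymphoid-primed progenitors and dendritic cells, and is switched off when B-cells commit. Cd34 is a sialomucin of stem and progenitor cells and of endothelium. Il2ra, also called CD25, is the alpha chain of the interleukin-2 receptor. It marks pre-B cells in mouse marrow as well as regulatory T cells, and its transcription responds to STAT5. An open peak shows access of the transposase to DNA. It is not a measure of transcription, and a peak near a gene need not act on it.

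The 250 bases before the gene start are shown for Il2ra, whose start lay in the only start peak that passed the test, and for Kit, whose start peak was weak. They are RefSeq sequence of build GRCm38.p6, on the strand of the gene (plus for both), with matches of the ETS core GGAA on either strand in capitals. Il2ra covers chr2:11642542-11642791 and Kit chr5:75574737-75574986.
Il2ra: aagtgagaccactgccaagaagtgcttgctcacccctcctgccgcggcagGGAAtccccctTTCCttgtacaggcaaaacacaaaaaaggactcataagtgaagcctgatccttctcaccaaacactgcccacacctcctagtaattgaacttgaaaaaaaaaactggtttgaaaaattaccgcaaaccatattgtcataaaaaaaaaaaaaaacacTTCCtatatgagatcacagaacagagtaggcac
Kit: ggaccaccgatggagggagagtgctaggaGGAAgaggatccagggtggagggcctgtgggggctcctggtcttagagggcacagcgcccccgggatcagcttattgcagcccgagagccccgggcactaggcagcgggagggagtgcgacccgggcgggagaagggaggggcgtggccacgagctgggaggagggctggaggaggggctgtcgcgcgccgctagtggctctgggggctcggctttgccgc
The windows differed in base composition. That of Il2ra was 42.4% G and C with 3 CpG, and that of Kit was 70.8% with 17, against medians of 52.0% and 6.0 over 27018 RefSeq promoters. The ETS core had 3 matches before Il2ra, 1 before Kit, 2 before Flt3 and 5 before Cd34, and 93.4% of all promoters of that length had at least 1. Further motifs were searched on both strands and had no match in the 4 windows. For RUNX proteins, which act throughout blood development, the letters were TGTGGT, found in 14.2% of all promoters. For GATA factors of stem, erythroid and mast cells they were AGATAA, found in 10.3%. For STAT proteins, which act below cytokine receptors, they were TTCNNNGAA, found in 7.18%, and the palindromic EBF motif was in 0.788%. The E-box CANNTG was found once, before Flt3, and in 66.1% of all promoters. The searched letters can share bases with each other, and a match is a description only.

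The authors' values are a signal per peak, already scaled across samples to totals of 20904407 to 21518630. The reads behind that signal, estimated from the regular steps of its low values, numbered 8052468 in proliferating sample 1 and 14017003 to 49373152 in the other samples. Of the 54 peaks, 50 passed the filter that removes the weakest 10% of all peaks and were tested with limma, together with 87411 peaks in all. The 2 samples numbered 1 deviated together from their group means (r = 0.43 over all tested peaks). For numbers 2 and 3 pairing was not clear, at 0.285 and 0.21, beside 0.22 for quiescent 2 with proliferating 3. The fit with the replicate number as a block is given beside each count, with that limit. Surface markers of B-cell stages were read as well. They cannot settle the tissue label, since markers of other cell types also had tested peaks, such as 8 of 8 for dendritic cells. All 17 B-cell stage markers had tested peaks, and their summed signal was 60818 to 62978 in quiescent and 65747 to 70141 in proliferating samples. Of these 17 genes, 6 had only lower peaks past the threshold in quiescent cells (Benjamini-Hochberg adjusted p under 0.05), 1 had both kinds and 10 had none. Of their 155 tested peaks, 1 was higher and 10 lower (8 and 28 with the block). Among all tested peaks the shares were 4.01% and 2.72% (10.2% and 8.14% with the block).

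In limma, 3 of 50 tested member peaks passed (6.0%), near the 6.72% of all tested peaks. One peak in Il2ra and one beyond Cd34 were higher in quiescent cells (background 4.01%) and the peak at the start of Il2ra was lower (background 2.72%). With the replicate block 15 passed (30.0%, against 18.3% of all peaks), 12 higher (background 10.2%) and 3 lower (background 8.14%). These were 5 higher peaks of Kit, 2 higher and 2 lower of Flt3, 3 higher of Cd34, and 2 higher and 1 lower of Il2ra. The median log2 fold change, quiescent against proliferating, was 0.39 for Kit, 0.32 for Flt3, 0.80 for Cd34 and 0.08 for Il2ra, beside -0.01 for all tested peaks. Proliferating sample 2 alone was the lowest of the 6 samples at 20 of 50 member peaks (40.0%), against 14.5% of all tested peaks. The groups did not overlap at 19 member peaks (38.0%, against 30.4% of all tested peaks), 15 of them higher and 4 lower in quiescent cells. Without quiescent sample 3 no peak of the whole table passed in limma, although 11 member peaks had an unadjusted p under 0.05, and without quiescent sample 2 or proliferating sample 2 no member peak passed (15 and 9 at an unadjusted p under 0.05). Leaving out the 6 peaks over non-coding genes, a choice made after seeing the data, left 2 higher and 1 lower (10 and 3 with the block).

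**Figure D1:**
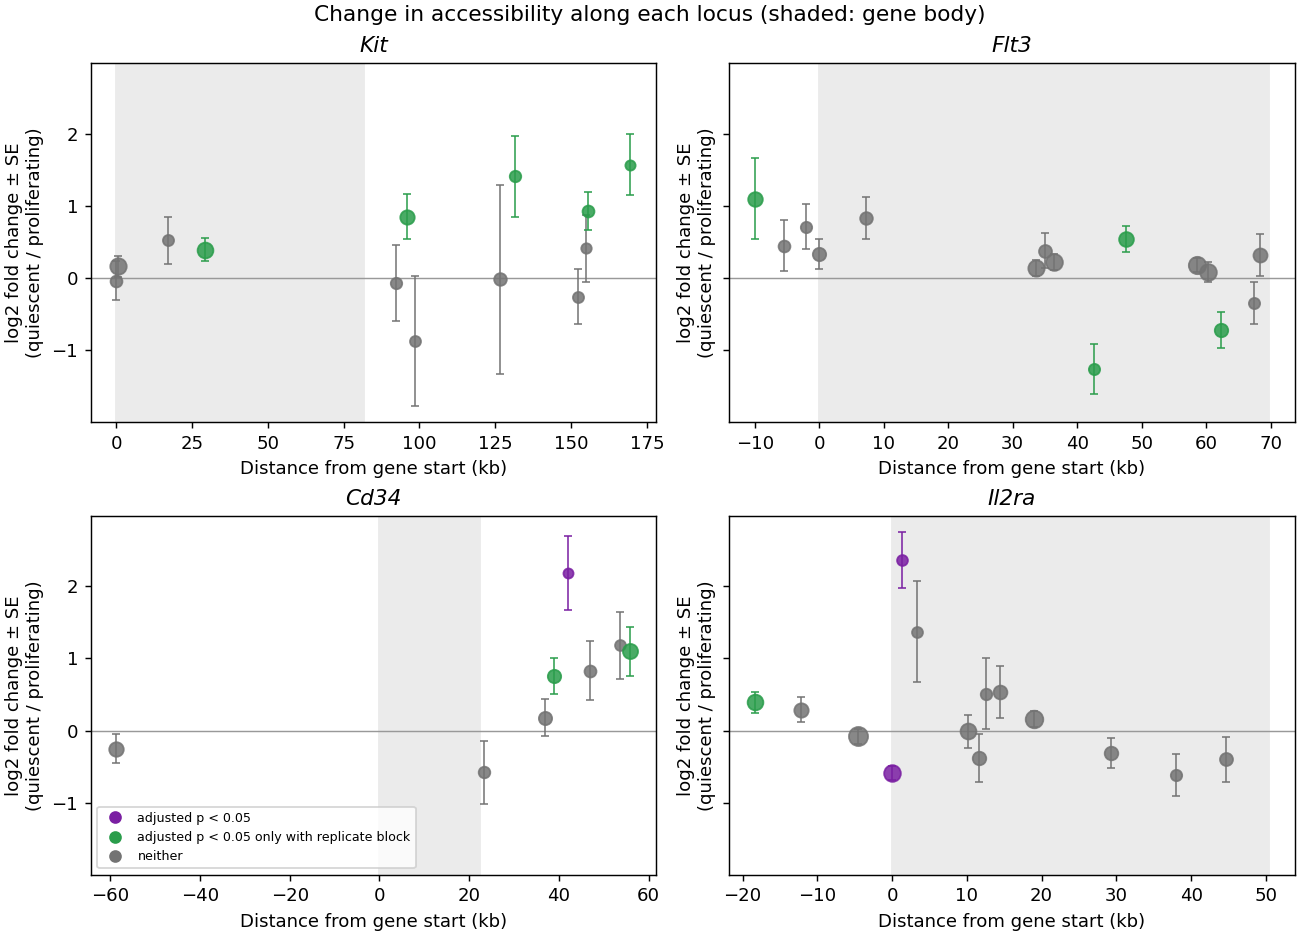
log2 fold change of each tested peak, quiescent over proliferating, with its standard error (bars), against the distance of its nearer edge from the gene start in the direction of transcription; larger points are stronger peaks and shading is the gene body. Purple points passed in limma (2 in Il2ra, 1 beyond Cd34), green points only with the replicate block (5 at Kit, 4 at Flt3, 2 at Cd34, 1 at Il2ra) and grey points in neither.

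Il2ra held 2 of the 3 peaks that passed, and these adjacent peaks at its start moved in opposite directions. The peak over the gene start (chr2:11641345-11643245, build mm10) had a signal of 1088, 1030 and 1045 in quiescent samples 1 to 3 and 1586, 1552 and 1634 in proliferating samples 1 to 3. Every quiescent sample lay below every proliferating sample. The fall to 0.663 times the proliferating level (1054 ± 30.3 against 1590 ± 41.1, mean ± SD, n = 3 each) was -0.59 ± 0.10 SE on the log2(value + 1) scale, with a limma adjusted p of 0.0169 and 0.00266 with the block. With estimated reads scaled by median of ratios it was -0.26 in limma-voom (adjusted p = 0.168), and -0.29 (0.0478) with the block. The signal was lower by a similar factor in each pair of samples with the same number, at 0.686, 0.663 and 0.639 times. This peak was at the 97.0 percentile of all peaks by mean signal and held 581 to 3615 estimated reads per sample.

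A weak peak 1.3 kb inside Il2ra (chr2:11644094-11644357) rose instead. It had 53.5, 49.2 and 58.1 in quiescent samples and 11.2, 5.93 and 13.3 in proliferating samples. Again the groups were apart, and the quiescent mean was 5.29 times the proliferating mean (log2 fold change 2.36 ± 0.39, limma adjusted p = 0.0144, and 0.00257 with the block). It rests on few reads, 28 to 55 in quiescent and 5, 10 and 38 in proliferating samples 1, 2 and 3. Its adjusted p in limma was 0.067 without quiescent sample 2, 0.0787 without quiescent sample 3 and 0.053 without proliferating sample 2. The start peak likewise lost its call without quiescent sample 2 (0.0836) or 3 (0.0781), or proliferating sample 2 (0.0718) or 3 (0.0785), with fold changes between -0.61 and -0.57.

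The strongest member peak of all lay 4.56 kb before Il2ra (chr2:11634559-11638230) and showed no difference past the threshold. Its signal was 5367, 5878 and 6507 in quiescent and 6605, 5803 and 6266 in proliferating samples, which overlapped (log2 fold change -0.08 ± 0.10, limma adjusted p = 0.683). A peak 19.0 kb inside the gene (chr2:11661837-11664933), at 2522, 2354 and 2586 against 1975, 2374 and 2352, had a log2 fold change of 0.16 ± 0.11 (limma adjusted p = 0.414). Both are wide peaks that stayed open in both groups. The peak farthest before the gene, 18.3 kb before the start (chr2:11622655-11624461), passed with the block only. It had 862, 738 and 865 against 657, 536 and 691, a log2 fold change of 0.39 (limma adjusted p = 0.146, and 0.0367 with the block).

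The other 10 Il2ra peaks, from 12.2 kb before the start to 44.6 kb inside, did not pass, and 1 of them was too weak to be tested. Proliferating sample 1 was the lowest of the 6 samples at 6 of 14 tested Il2ra peaks (42.9%), against 25.2% of all tested peaks. At the peak 14.4 kb inside it had 83.3, where the others had 205 to 258. At the peak 3.32 kb inside, proliferating samples ranged from 4.74 in sample 1 to 45.0 in sample 2. Over all 15 peaks the summed Il2ra signal was 12240 ± 742 in quiescent and 12599 ± 449 in proliferating samples, a ratio of 0.972. Markers of T and regulatory T cells, which also use Il2ra, had tested peaks at 7 of 9 genes, with none at Cd3g or Foxp3. Their summed signal was 10016 to 10959 in quiescent and 8667 to 9719 in proliferating samples. Of 38 tested peaks, 5 were higher and 2 lower (8 and 4 with the block). Among all tested peaks the shares were 4.01% and 2.72% (10.2% and 8.14% with the block). The calls without the block were at Ctla4 (4 higher, 1 lower) and Cd28 (1 and 1), and the other tested genes had none. The part of these cells in the Il2ra values was not tested. In bulk samples of this kind a change in the mix of cells cannot be told apart from a change within each cell.

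**Figure D2:**
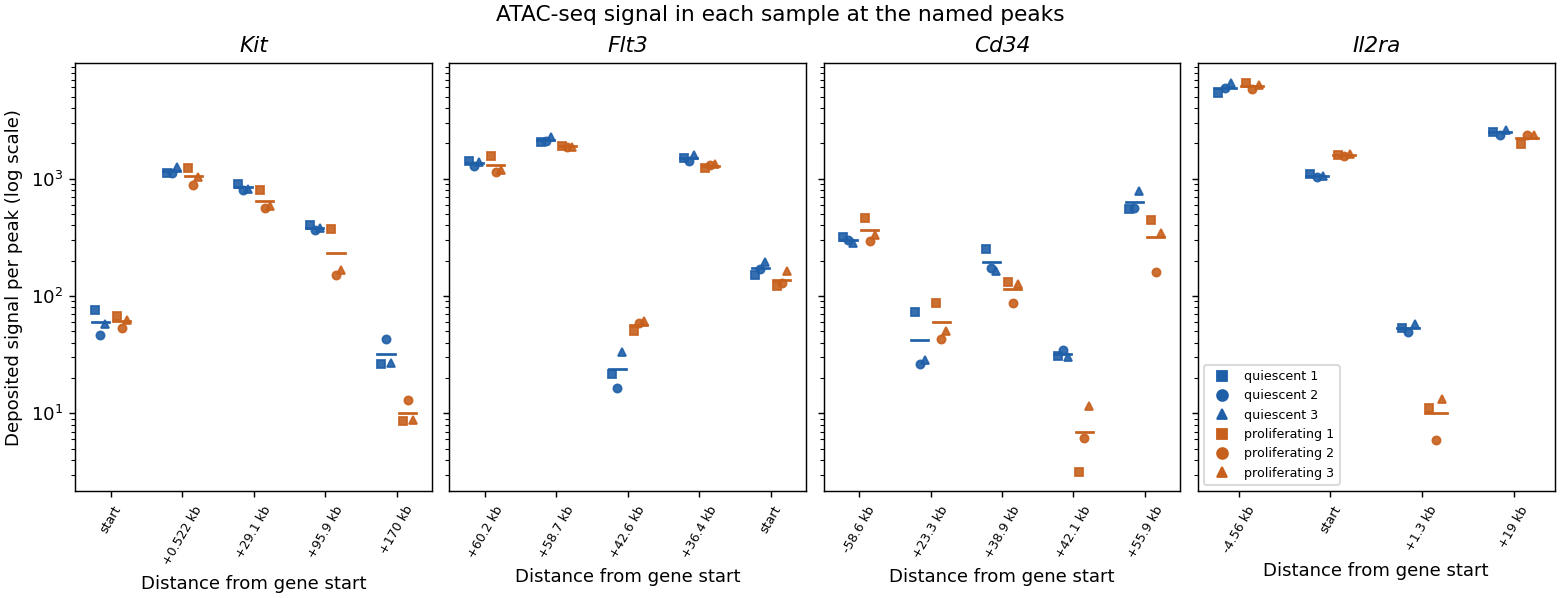
Deposited signal (log scale) in each of the 6 samples at the peaks of each gene named by rule, in genomic order, labelled by distance from the gene start; blue is quiescent, orange proliferating, the symbol gives the replicate number and the line the mean of the group. At the Il2ra start the quiescent samples lie at 1030 to 1088 and the proliferating samples at 1552 to 1634, and at the peak 1.3 kb inside the order is reversed.

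Kit showed no peak past the threshold in limma on deposited values, where the strong peak near its start differed little between the groups. The gene start itself lay in a weak peak (chr5:75574227-75575290) with 76.3, 46.8 and 57.7 in quiescent and 67.6, 53.0 and 62.7 in proliferating samples. The strong peak began 0.522 kb into the gene (chr5:75575509-75579093), at 1129, 1118 and 1257 against 1232, 883 and 1043. Both overlapped between the groups (log2 fold changes -0.04 ± 0.27 and 0.16 ± 0.15, limma adjusted p = 0.946 and 0.543). The second strong peak, 29.1 kb inside (chr5:75604127-75605106), had 900, 808 and 822 in quiescent and 798, 560 and 589 in proliferating samples. The groups were just apart, and the difference of 0.39 ± 0.16 gave a limma adjusted p of 0.175 and 0.046 with the block. It was 0.55 (adjusted p = 0.0306) without proliferating sample 1, and 0.30 to 0.42 (adjusted p = 0.277 to 0.425) without each other sample. Without both samples numbered 1 it was 0.50 (limma adjusted p = 0.0119). On estimated reads in limma-voom, without the block, this peak had 0.74 (adjusted p = 0.0218) by median of ratios and 0.52 (0.0378) scaled to their total. The peak 0.522 kb into the gene had 0.52 (0.0483) and 0.30 (0.14) on these scalings.

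Beyond the far end of Kit, a stretch of 276 kb without a protein-coding gene up to Kdr, 10 peaks fell to Kit and 4 of them were higher in quiescent cells with the block. The strongest, 14.2 kb past the end (chr5:75670889-75671953), had 403, 366 and 380 in quiescent and 375, 152 and 167 in proliferating samples. Proliferating sample 1 thus matched the quiescent samples, while quiescent samples 2 and 3 had 2.41 and 2.28 times the signal of their proliferating counterparts. The log2 fold change was 0.85 ± 0.31 (limma adjusted p = 0.134, and 0.0196 with the block). It was 1.26 (adjusted p = 0.00511) without proliferating sample 1, and 0.61 to 0.88 (adjusted p = 0.202 to 0.34) without each other sample. With estimated reads in limma-voom, without the block, it was 1.21 (adjusted p = 0.0158) by median of ratios and 0.99 (0.0218) scaled to their total. A peak 49.6 kb past the end (chr5:75706370-75706730) had 113, 48.5 and 42.2 against 52.1, 13.9 and 15.2. The groups overlapped, and each quiescent sample had 2.17 to 3.48 times the signal of the proliferating sample of the same number (log2 fold change 1.41, limma adjusted p = 0.159, and 0.0101 with the block).

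The remaining pair of these peaks lay farther out. The peak 73.9 kb past the end (chr5:75730610-75731365) had 94.8, 82.5 and 66.3 against 44.1, 36.7 and 44.9. The weak peak 87.8 kb past it (chr5:75744532-75745028) had 26.4, 43.2 and 27.0 against 8.59, 13.0 and 8.73. In both the groups were apart, with log2 fold changes of 0.93 and 1.57 (limma adjusted p = 0.0636 and 0.058, and 0.0311 and 0.0268 with the block). The last rests on as few as 5 estimated reads in proliferating sample 1.

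Part of the Kit locus also separated the samples by number. At 6 of 13 tested Kit peaks (46.2%) both samples numbered 1 lay above the 4 others, against 12.6% of all tested peaks, and at none did both lie below. One of the 6, at 49.6 kb past the end, was also among those that passed with the block. The widest gap was 44.9 kb past the gene (chr5:75701599-75702415), with 310 in quiescent sample 1 and 226 in proliferating sample 1, and 12.6, 14.6, 11.9 and 22.7 in the other samples. The groups overlapped there, with a log2 fold change of -0.02 ± 1.31. A neighbour 16.8 kb past the gene (chr5:75673540-75674228) had 86.7 and 63.5 in the samples numbered 1 and 5.16 to 24.0 in the others. What the number stands for (animal, litter or day) is not given in the labels.

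**Figure D3:**
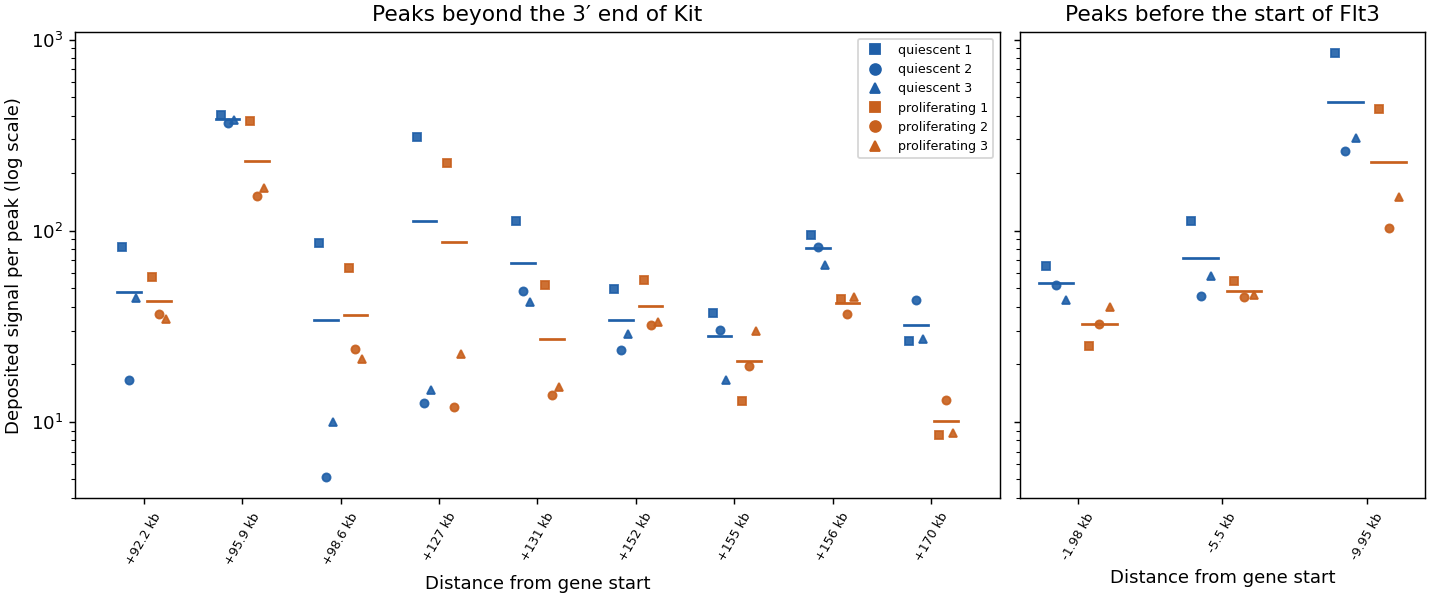
Deposited signal (log scale) by sample at the 9 tested peaks beyond the far end of Kit and the 3 peaks before the start of Flt3, labelled by distance from the gene start; blue is quiescent, orange proliferating, squares are the samples numbered 1 and lines are group means. Squares of both colours stand above the rest at 127 kb from the Kit start (310 and 226, against 11.9 to 22.7) and at 9.95 kb before Flt3 (846 and 434, against 103 to 307).

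Summed over its 15 peaks, Kit signal was 3382, 2642 and 2848 in quiescent and 3061, 1887 and 2118 in proliferating samples. Each quiescent sample lay above the proliferating sample of its number, while the groups overlapped. Proliferating sample 2 was the lowest of the 6 samples at 7 of 13 tested Kit peaks (53.8%), against 14.5% of all tested peaks. Mast cell and basophil markers, another population that uses Kit, had tested peaks at 5 of 8 genes, with none at Fcer1a, Mcpt8 or Mcpt4. Their summed signal was 2147 to 2526 in quiescent and 1648 to 2236 in proliferating samples. In limma 0 of 14 peaks passed, beside 6.72% of all tested peaks. With the block 2 rose and 0 fell, beside 10.2% and 8.14% of all tested peaks. The part of these cells in the Kit values was not tested.

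Flt3 was open in both groups at strong peaks inside the gene, and none of its 15 tested peaks passed in limma. The strongest, 58.7 kb from the start (chr5:147340280-147341829), had 2075, 2082 and 2267 in quiescent and 1901, 1869 and 1881 in proliferating samples. The groups were apart, by a ratio of 1.14 (log2 fold change 0.18 ± 0.10, limma adjusted p = 0.285). Its neighbour at 60.2 kb (chr5:147338579-147340258), at 1410, 1285 and 1378 against 1553, 1146 and 1195, overlapped (0.08 ± 0.14, adjusted p = 0.784). The next strongest, at 36.4 kb (chr5:147362191-147364105), had 1499, 1428 and 1593 against 1237, 1310 and 1335 (0.22 ± 0.11, adjusted p = 0.252). The start of Flt3 lay in a much weaker peak (chr5:147399811-147401351) with 150, 171 and 196 against 121, 128 and 162 (0.33 ± 0.21, adjusted p = 0.363).

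With the block, Flt3 peaks passed in both directions. The peak 9.95 kb before the start (chr5:147410440-147411846) had 846, 260 and 307 in quiescent and 434, 103 and 150 in proliferating samples. The samples numbered 1 stood above the others, and within each number the quiescent sample was 1.95 to 2.51 times as high (log2 fold change 1.10 ± 0.56, limma adjusted p = 0.265 without and 0.0011 with the block). A peak at 47.5 kb (chr5:147351492-147352950) had 376, 468 and 554 against 324, 292 and 333, with the groups apart (0.54, adjusted p = 0.104, and 0.0299 with the block).

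The lower pair lay inside the gene. A weak peak at 42.6 kb (chr5:147357513-147357891) had 21.7, 16.6 and 33.4 in quiescent and 50, 58.6 and 61.7 in proliferating samples. It was 2.37 times as high in proliferating cells, and the groups were apart (log2 fold change -1.26 ± 0.34, limma adjusted p = 0.0566, and 0.0209 with the block). A peak at 62.3 kb (chr5:147337466-147338182) had 135, 93.8 and 142 against 252, 203 and 159 (-0.72, adjusted p = 0.116, and 0.0383 with the block).

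Dendritic cells also use Flt3, and several peaks of their markers were higher in quiescent cells. All 8 marker genes had tested peaks, and 7 of their 40 tested peaks passed as higher in quiescent cells and none as lower (16 and 2 with the block), beside 4.01% and 2.72% of all peaks (10.2% and 8.14% with the block). Their summed signal was 10093, 13227 and 14017 in quiescent and 9139, 8808 and 8765 in proliferating samples. Without the block the higher calls were at Zbtb46 (3), Siglech (3) and Xcr1 (1), and 5 of the 8 genes had none. Siglech, a surface protein of plasmacytoid dendritic cells, had 3792, 5841 and 6226 against 3134, 2377 and 2809, while Itgax, which encodes CD11c, was not higher (851 to 1134 against 949 to 1804). Their part in the Flt3 values was not tested. Summed over all its peaks, Flt3 signal was 8035 ± 439 in quiescent and 6921 ± 315 in proliferating samples, a ratio of 1.16, with the groups apart.

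Cd34 had no deposited peak over its start or anywhere in its gene body of 22.5 kb. One of its 9 peaks lay 58.6 kb before the start, and 8 lay from 0.817 to 33.4 kb past the end, toward Cd46. The peak that passed in limma was weak and lay 19.6 kb past the end (chr1:194980876-194981216). It had 30.9, 34.5 and 30.4 in quiescent and 3.19, 6.22 and 11.5 in proliferating samples, and the groups were apart (log2 fold change 2.18 ± 0.51, limma adjusted p = 0.0395, and 0.0139 with the block). It held 17 to 30 estimated reads in quiescent samples and 2, 10 and 33 in proliferating samples 1, 2 and 3. Its limma adjusted p rose to 0.0735, 0.125 and 0.132 without quiescent samples 1, 2 and 3, and to 0.12 and 0.0655 without proliferating samples 2 and 3, with fold changes of 2.13 to 2.58. With reads scaled to their total it was 1.34 and did not pass (limma-voom adjusted p = 0.0625).

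The strongest Cd34 peak lay 33.4 kb past the gene (chr1:194994739-194995971), with 553, 567 and 787 in quiescent and 449, 159 and 347 in proliferating samples. The groups were apart and the quiescent mean was 1.99 times as high, with a log2 fold change of 1.10 ± 0.34 (limma adjusted p = 0.0886, and 0.00758 with the block). Without proliferating sample 1 it was 1.41 (adjusted p = 0.0285), without proliferating sample 2 it was 0.67 (adjusted p = 0.165), and without each other sample 0.94 to 1.22 (adjusted p = 0.102 to 0.262). A peak 16.5 kb past the gene (chr1:194977762-194978571), at 251, 174 and 162 against 131, 86.9 and 126, passed with the block only (0.76 ± 0.25, adjusted p = 0.103 and 0.0225). The peak before the gene (chr1:194879155-194880208), at 319, 299 and 281 against 464, 295 and 329, and that just past its end (chr1:194962109-194962722), at 72.8, 26.3 and 28.4 against 86.7, 42.9 and 50.8, did not pass (-0.25 ± 0.20 and -0.58 ± 0.44, adjusted p = 0.481 and 0.459). The 6 tested peaks from 14.5 kb past the end onward had log2 fold changes above 0, from 0.18 to 2.18. Proliferating sample 2 was the lowest of the 6 samples at 5 of 8 tested Cd34 peaks (62.5%), against 14.5% of all tested peaks. The summed signal was 1500 ± 110 in quiescent and 1080 ± 343 in proliferating samples, which overlapped.

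Stem cells and endothelium also use Cd34. Calls at the marker sets below stand beside 4.01% higher and 2.72% lower of all tested peaks (10.2% and 8.14% with the block). Surface and transcription factor markers of stem cells had tested peaks at 9 genes, with none at Tek or Mecom. In limma 0 of 40 peaks passed at these genes (4 higher and 8 lower with the block), and the summed signal was 6695 to 7592 in quiescent and 7335 to 8306 in proliferating samples. Endothelial markers had tested peaks at 6 of 8 genes, with none at Tek or Tie1. There, 3 of 54 peaks rose, 2 of them at Kdr, and 2 fell (4 and 6 with the block). The summed signals were 12489 to 14076 and 13057 to 16079. Myeloid markers had 4 higher and 3 lower of 44 tested peaks (9 and 4 with the block), with none at Mpo or Elane. The part of these cells in the Cd34 values was not tested.

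The deposited scaling changed with the strength of a peak, and this bears on the strong Kit, Flt3 and Il2ra peaks. When the estimated reads were scaled by median of ratios instead, the median log2 fold change was -0.02 over all tested peaks, 0.29 in the strongest 10% and -0.33 in the weakest 10%. On the deposited values these medians were -0.01, -0.01 and 0.03. The strongest 10% holds 11 member peaks. On that scaling 16 member peaks passed in limma-voom (13.4% of all peaks did), 15 higher and 1 lower (background 9.03% and 4.33%). The strong peaks in Kit (0.522 kb inside, 0.52, adjusted p = 0.0483) and in Flt3 (at 58.7 kb, 0.54, adjusted p = 0.0128) were among them. The Il2ra start peak, also among the strongest 10%, kept its direction but did not pass without the block. On this scaling the median in that class was 0.29, beside 0.52 and 0.54 for these Kit and Flt3 peaks and -0.26 for the Il2ra start peak. The peak 1.3 kb inside Il2ra passed (2.15, adjusted p = 0.0084). With the block on that scaling, 21 member peaks were higher (background 15.5%) and 3 lower (background 9.58%, 25.1% in all). Reads scaled to their total gave 6 higher (background 5.04%) and 4 lower (background 9.74%, 14.8% in all). On deposited values without both samples numbered 1, 13 were higher (background 12%) and 2 lower (background 8.83%, 20.8% in all).

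**Figure D4:**
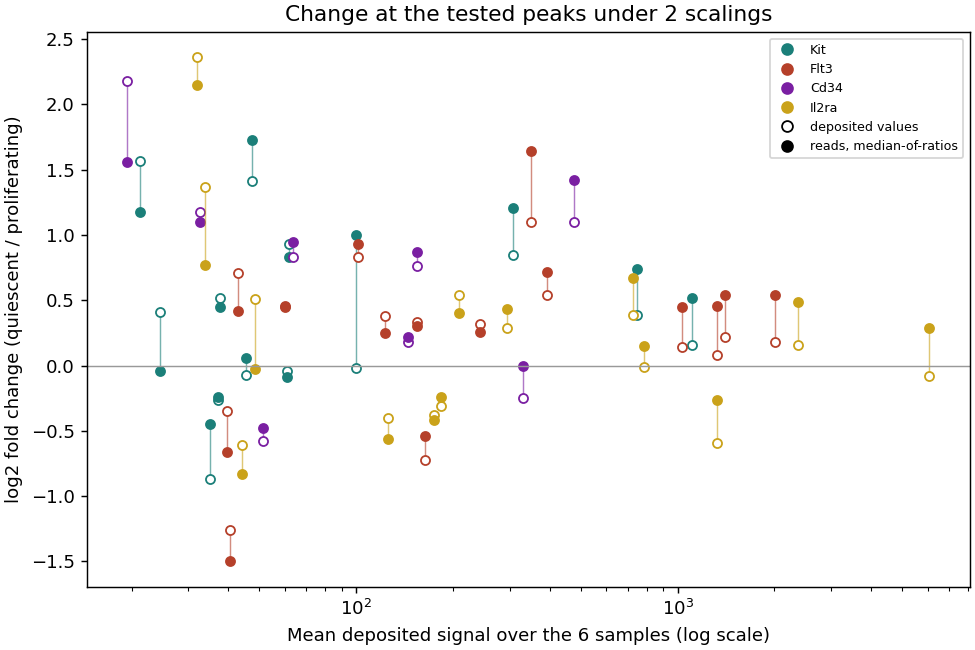
log2 fold change of the 50 tested peaks (vertical axis) against their mean deposited signal (log scale), on deposited values (open circles) and on estimated reads with median-of-ratios scaling (filled circles, joined by a line), coloured by gene. The strong peaks to the right move up, the Il2ra start peak from -0.59 to -0.26 and the strongest Flt3 peak from 0.18 to 0.54.

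Genes that act with these receptors are read against the shares of all tested peaks, 4.01% higher and 2.72% lower, or 10.2% and 8.14% with the block. Of 20 genes of Kit and Flt3 signalling, 3 had only higher peaks, 2 only lower, 2 both and 13 none past the threshold, and 13 of 245 tested peaks were higher and 6 lower (35 and 16 with the block). The median was 0.13, and the shares without the block were near those of all peaks. In Gab2, an adaptor of receptor kinases, a peak (chr7:97125351-97125663) had 107, 108 and 111 in quiescent and 39.2, 23.9 and 30.2 in proliferating samples (1.80 ± 0.26, limma adjusted p = 0.0106). Near Lyn, a Src family kinase, a peak (chr4:3659331-3659637) was higher, at 127, 103 and 128 against 47.7, 53.6 and 40.3 (1.32 ± 0.23, adjusted p = 0.017). In Sla, which encodes an adaptor that dampens receptor signals, a peak (chr15:66813800-66814528) was lower, at 119, 136 and 130 against 352, 310 and 272 (-1.27 ± 0.18, adjusted p = 0.00971). A weak peak near Pik3r1, the regulatory subunit of PI3 kinase, fell too (-2.08 ± 0.47, adjusted p = 0.034). Lyn and Sla are the genes counted as both, each with 1 higher and 1 lower peak past the threshold.

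Of 12 genes of the IL-2 receptor family and its partners, 11 had a tested peak and Il2rg had none. Among them 4 had only higher peaks, 1 only lower, 1 both and 5 none, with 11 of 106 peaks higher and 2 lower (20 and 6 with the block, median 0.04), beside 4.01% and 2.72% of all peaks (10.2% and 8.14% with the block). In Jak1, the kinase bound to the beta chain, a peak (chr4:101172560-101173353) had 218, 149 and 239 in quiescent and 72.2, 83.7 and 70.0 in proliferating samples (1.39 ± 0.24, limma adjusted p = 0.0152). A peak in Il15, a cytokine that shares that chain, rose as well (1.55 ± 0.28, adjusted p = 0.0177). A strong peak 3.08 kb from Il21r, the IL-21 receptor (chr7:125599143-125600177), fell to 1074, 864 and 921 from 1656, 2696 and 2055 (-1.14 ± 0.18, adjusted p = 0.0122). Il21r is the gene counted as both, with 1 higher and 1 lower peak past the threshold. The peak in Crlf2, a chain of the TSLP receptor, was lower on deposited values (-0.51 ± 0.09, adjusted p = 0.0154) but not past the threshold with median-of-ratios scaling (-0.14, adjusted p = 0.413).

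Among 8 relatives, receptor kinases of the same class or its nearest kin and sialomucins of the Cd34 family, 2 genes had only higher peaks, 2 only lower and 4 none. Of 51 peaks, 5 rose and 3 fell (9 and 3 with the block, median 0.00), beside 4.01% and 2.72% of all peaks (10.2% and 8.14% with the block). Csf1r, the receptor of monocytes and macrophages, had a higher peak (447, 621 and 535 against 308, 233 and 230, 1.06 ± 0.19, limma adjusted p = 0.0174). Kdr, the gene that follows Kit on the chromosome, had a higher peak 1.49 kb outside the gene (320, 266 and 249 against 175, 141 and 124, 0.93 ± 0.20, adjusted p = 0.0307). Peaks were lower in Flt1 (-1.16 ± 0.24, adjusted p = 0.0278) and in Podxl2, a relative of Cd34 (-1.58 ± 0.32, adjusted p = 0.0246). These calls too were lost without quiescent sample 3.

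The profile over the 6 samples of each member's strongest peak within 1 kb of a gene end was compared with that of 9905 other genes. By Pearson's r of the log2 values, the Il2ra start peak was most like those of Pllp (0.998), Rps3a1 (0.995) and Ccdc17 (0.995), and 640 genes had an r above 0.9. For the Kit peak these were Fam83f (0.998), Dclre1b (0.987) and Stpg2 (0.981), and 46 genes lay above 0.9. For the peak at the far end of Flt3 they were H3f3a (0.994), Srsf4 (0.993) and Rpl23 (0.988), with 261 above 0.9. For the peak past the end of Cd34 they were Lsmem1 (0.997), Fas (0.995) and Mbnl2 (0.993), with 202 above 0.9. With 6 samples and this many genes, high values of r are common, and the samples share their scaling and library depth.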

How the data were processed

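ATAC-seq libraries of bone marrow B-cells came from a commercial kit, and sequencing was repeated for depth, per the labels' protocols. Build mm10 and the tools MACS2, Bowtie2 and SAMtools are listed by the submitters' processing notes. Read counting and scaling: not given in the sources used here. A shared list of 97124 peaks was deposited by the authors with a signal per library. These values are scaled, not counts, so limma 3.58.1 (R 4.3.3) with an intensity trend was fitted to log2(value + 1) over 87411 peaks above the lowest 10%, with Benjamini-Hochberg adjustment over all of them and a threshold of 0.05. The added 1 makes log2 fold changes at weak peaks smaller, 2.36 against 2.42 with 0.5 added at the peak 1.3 kb inside Il2ra. Estimated reads by median of ratios moved weak peaks either way. The change went from 2.36 to 2.15 at that peak and from -1.26 to -1.5 at the weak Flt3 peak. The test was checked on simulated data.

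Reads were estimated from the steps of low values, followed along peak strength in 4 rounds. Of values of 1 to 1000 reads, 99.2% to 100.0% came out within 0.1 of a whole number. These read numbers bear on counting error alone, and whether they suffice at weak peaks was not tested. Same-numbered samples were treated as pairs in the block: their deviations from group means correlated at 0.43, 0.285 and 0.21 over 87411 peaks, each above 0.1. The pairing was clear for number 1 only: quiescent 2 with proliferating 3 reached 0.22 and quiescent 3 with proliferating 2 reached 0.146. Genes and promoter sequence are RefSeq tables of GRCm38.p6, the assembly behind mm10. Peaks are written as in the deposited list. All 4 members, and 20 of 20, 11 of 12 and 8 of 8 genes of the lists, had tested peaks. Peaks named are those past the threshold, the 3 strongest of each member, the one nearest its start and the one with the largest change; peaks that passed only with the block and the Kit peaks that split by number were added after their values were seen. In the lists, the 2 genes with the smallest adjusted p per direction are named. The members and lists were chosen with earlier results of these data known. Other steps used matplotlib 3.10.9, pandas 2.3.3 and numpy 2.4.6 under Python 3.11.15. One marker gene is not reported here.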

Additional observations from a re-analysis of the deposited data

How the results depend on the processing

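Counts of calls depended on the processing more than directions did. With the replicate block 15999 peaks passed, 12 member peaks higher and 3 lower, against 5876, 2 and 1 without it. Leaving out single samples gave 0 to 8241 peaks, 0 to 8 higher and 0 to 1 lower member peaks. Leaving out both samples numbered 1, chosen after seeing the data, gave 18201 peaks (20.8%), 13 higher and 2 lower. Reads with median-of-ratios scaling gave 11679 peaks and 15 higher, and with the block as well, also chosen after seeing the data, 21927 peaks (25.1%), 21 higher and 3 lower. Reads scaled to their total, where the median of all tested peaks was -0.25, gave 12925 peaks (14.8%), 6 higher and 4 lower, and 34.1% of those peaks were higher in quiescent cells, against 59.6% on deposited values and 67.6% with median of ratios. Without the intensity trend 3247 peaks passed, 1940 higher and 1307 lower, with 3 higher and 0 lower among member peaks. With quantile normalization 6405 passed, 3606 higher and 2799 lower, with 2 higher and 2 lower among member peaks. With the filter at 25%, or with peaks of the gene body only, 1 member peak was higher and 1 lower.

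Of 321 refits of the 19 peaks named by rule, 9 changed sign or came to 0, at peaks that did not pass on deposited values. The Kit start peak ranged from -0.22 to 0.12 over single samples left out, with 0.03 without proliferating sample 1. The Flt3 peak at 60.2 kb ranged from -0.01 to 0.21 over single samples left out, and reached 0.46 with median of ratios (0.40, adjusted p = 0.0148 in limma-voom, with the block). The Cd34 peak before the gene had 0.0 with median-of-ratios scaling. The strongest Il2ra peak had 0.02 with quantile normalization, 0.07 with reads scaled to their total, 0.29 with median of ratios (0.28, adjusted p = 0.0231 in limma-voom, with the block) and 0.04 without both samples numbered 1. The causes were not tested. Proliferating sample 1 held a median of 27.0 estimated reads per peak, the fewest of the 6, and how depth bears on the calls was not tested.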
